A study of Mus musculus with 4 samples.

Results

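Mitochondrial carriers of the SLC25 family and the subunits of the translocases that import proteins into mitochondria were followed in mouse liver with and without an adenovirus for lipin 1beta. Members were all probe sets with a single gene symbol that begins with Slc25a, Timm or Tomm followed by a digit, apart from Slc25a20 and Slc25a15. The rule uses symbols and no measured value, but it was set with earlier results of these data known. This gave 52 genes of the 12393 with a single symbol on the array, read by 103 of 20380 probe sets: 31 carrier genes and 21 import genes. After the filter on dim probe sets 45 of the 52 were tested, 26 carriers and 19 import genes, through 84 probe sets. A further 3 probe sets name Tomm5 or Tomm6 beside a second gene and are not members.

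Nearly all carriers sit in the inner mitochondrial membrane, where each moves a small set of metabolites, nucleotides, cofactors or ions between cytosol and matrix. Nuclear-encoded mitochondrial proteins, the carriers among them, enter through the TOM complex of the outer membrane. From there the TIM23 complex takes proteins with a presequence into the matrix or inner membrane, while small Tim chaperones hand the carriers to the TIM22 complex. In liver the carriers serve oxidative phosphorylation, the urea cycle, gluconeogenesis, lipid synthesis and haem synthesis.

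Livers came from adult male C57BL6 mice killed 6 days after injection of adenovirus. The control group, GFP, had received virus for green fluorescent protein (n = 2 arrays), and the other, Ad-lipin, virus for the mouse beta form of lipin 1 (n = 2 arrays). Both groups thus carried a virus, no uninfected liver was analysed here, and the share of hepatocytes reached by the virus is not given. The labels name total RNA for 3 samples and polyA RNA for Ad-lipin replicate 2. They do not say whether each array stands for an animal of its own, so p-values measure only how these samples vary, which may be technical. Signals are MAS5 intensities in arbitrary units, and differences are given as log2 of Ad-lipin over GFP with limma's standard error. Signals under 119.5 were raised to that value first, so that differences of dim genes are understated. Where several tested probe sets read a gene, the one with the highest mean represents it.

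The arrays did not all stand close together or match their labels. GFP replicate 2 correlated least with the rest (mean r = 0.731, where the others had 0.781 to 0.793) and its beta-actin control gave a 3' to 5' ratio of 4.22, where the others gave 1.77 to 2.86. The 2 probe sets of Lpin1 read 2730.1 and 7082 in GFP replicate 1, 1430.2 and 4632 in GFP replicate 2, and 6719 and 11087 in Ad-lipin replicate 2, but 2261 and 3854 in the array labelled Ad-lipin replicate 1. That array thus read below both GFP arrays on the second probe set and between them on the first, for the gene that the virus carries, and every direction below rests on the labels. Whether the Lpin1 probes lie within the viral cDNA is not known here. Medians and the members whose sign turns are given without GFP replicate 2, without the array labelled Ad-lipin replicate 1 and without Ad-lipin replicate 2 too. Hepatocyte markers were bright on every array, and 7 of 8 listed had a probe set. Alb, albumin, read 571407 to 1069105. The list summed to 1560839 in GFP replicate 1, to 3352547 in GFP replicate 2 and to 2192521 and 2652429 in the arrays labelled Ad-lipin. Of its genes 6 of the 7 had positive differences, with a median of 0.19 on the log2 scale. The part of this in the members' values was not tested.

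No carrier and no import gene passed the test. With a limit of 0.05 on limma's adjusted p, 0 of 13576 probe sets were called higher (0%) and 0 lower (0%). Among the 45 tested members the smallest limma adjusted p was 0.962. Before adjustment, 4 carriers had a p under 0.05, all higher in the arrays labelled Ad-lipin, and so did 1 import gene, which was lower. Over all 8493 tested genes 2.66% were higher and 1.97% lower at that level, and 596 probe sets reached it in either direction. The carriers were Slc25a17, Slc25a37, Slc25a11 and Slc25a10, and the import gene was Timm17b. The smallest p that an exact two-sided test of a single gene can reach with 2 arrays per group is 0.333.

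The median carrier was 1.18-fold higher in the arrays labelled Ad-lipin, a log2 difference of 0.24, and 18 of 26 lay above 0. The median import gene differed by 0.19, with 10 of 19 above 0. Over all tested genes the median was 0.0015 and 50.1% lay above 0. Both arrays labelled Ad-lipin exceeded both GFP arrays in 6 carriers (23.1%) and 4 import genes (21.1%), against 17.3% of all tested genes. Both lay below in 3 carriers (11.5%) and 2 import genes (10.5%), against 16% of all. In the other 30 members the groups overlapped. Whole liver was measured, so fewer cells of a type and less RNA per cell cannot be told apart in any of these values.

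**Figure D1:**
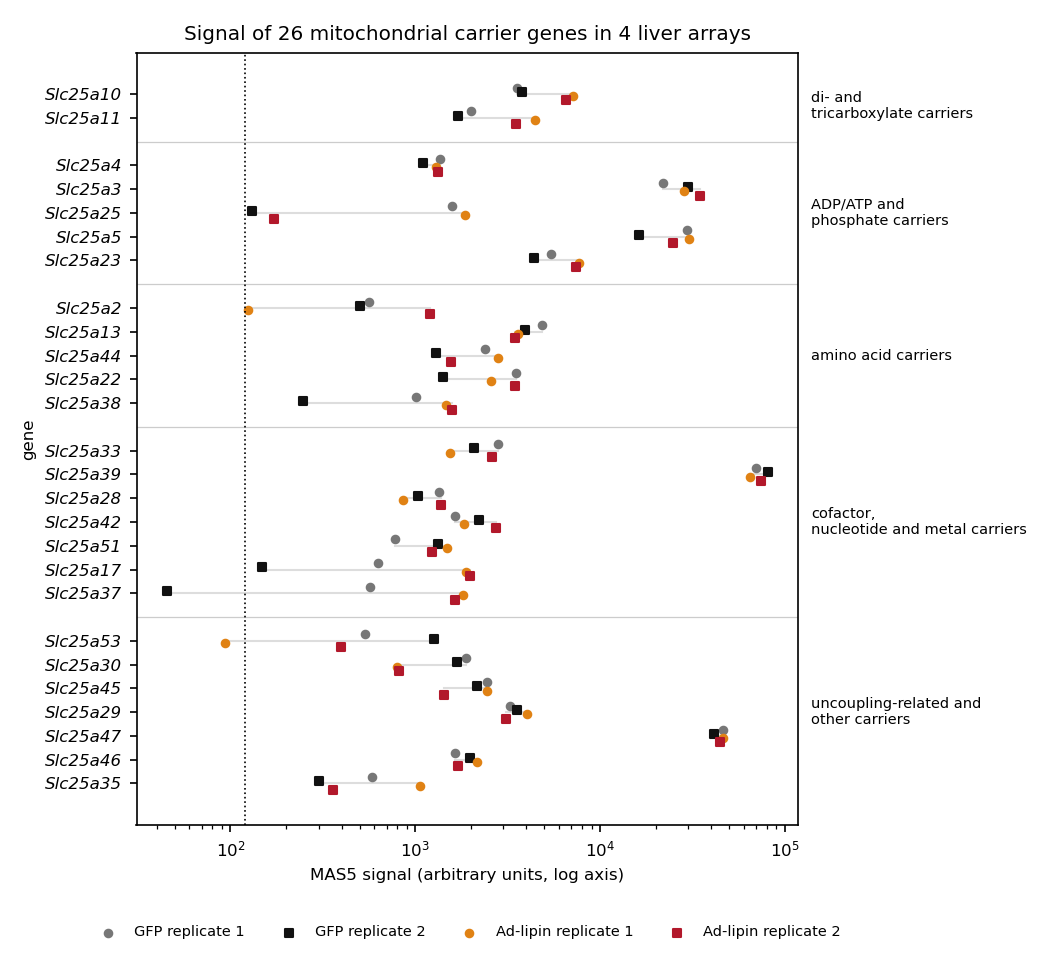
MAS5 signal (log axis) of the 26 tested carrier genes on the 4 arrays, 1 point per array, with genes grouped by what they carry and ordered within a group by the log2 difference. The dotted line is the floor of 119.5. In Slc25a10 and Slc25a11 both Ad-lipin points lie to the right of both GFP points, and in Slc25a17, Slc25a37 and Slc25a38 GFP replicate 2 lies far to the left of the other 3.

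Both tested carriers of dicarboxylates had separate groups on the probe set that represents them. Slc25a11, the oxoglutarate carrier that exchanges 2-oxoglutarate for malate in the malate-aspartate shuttle, had GFP signals of 2015 and 1702 (replicates 1 and 2, an order kept below) and Ad-lipin signals of 4447 and 3529. The groups did not overlap, and the log2 difference was 1.10 ± 0.42 (SE, n = 2 per group; limma adjusted p = 0.962), or 2.14-fold. Leaving out one array at a time gave 0.93 to 1.26. Slc25a10, the dicarboxylate carrier that exchanges malate or succinate for phosphate, read 3551 and 3766 in GFP and 7145 and 6533 in the arrays labelled Ad-lipin. Its log2 difference was 0.90 ± 0.35 (limma adjusted p = 0.962), or 1.87-fold, and lay between 0.84 and 0.97 with any one array left out. The second Slc25a10 probe set went the other way, with 1601 and 1840.0 in GFP and 1594 and 1410 in Ad-lipin, a log2 difference of -0.20 ± 0.51. A reading of Slc25a10 therefore depends on which probe set is taken, whereas Slc25a11 had a single one.

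Carriers that serve ATP export and phosphate uptake differed little. All 5 tested had positive differences, from 0.10 to 0.63, none larger than 2 standard errors. Slc25a3, the phosphate carrier, read 22003 and 29995 in GFP and 28366 and 34778 in the arrays labelled Ad-lipin, and the groups overlapped (0.29 ± 0.33). Slc25a5, the adenine nucleotide translocase ANT2, read 29442 and 16251 in GFP against 30113 and 24670 on its brightest probe set (0.32 ± 0.35), with GFP replicate 2 the low array. Without GFP replicate 2 that difference was -0.11. The 8 tested Slc25a5 probe sets ran from -1.29 to 0.38, and 4 lay above 0. Groups were apart on some of them, in both directions. Slc25a4, the muscle-type translocase ANT1, differed by 0.10 ± 0.58, or -0.06 without GFP replicate 2. Its dimmer tested probe sets gave 0.19 and -1.88.

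Of the calcium-regulated ATP-magnesium/phosphate carriers, Slc25a23 had separate groups, with 5430.3 and 4395 in GFP and 7698 and 7383 in the arrays labelled Ad-lipin (0.63 ± 0.34). Slc25a25 split by replicate number and not by group: it read 1586 and 1868 on the arrays numbered 1, but 131.7 and 172.8 on those numbered 2. Its difference of 0.31 ± 1.43 was smaller than its error. The value turned to -1.48 without GFP replicate 2 and to -1.40 without the array labelled Ad-lipin replicate 1. Slc25a24, a further member of that kind, was too dim to test, with 339.2 and 216.4 in GFP and 74.6 and 74.8 in the arrays labelled Ad-lipin, the latter both under the floor, so that its groups were apart in the other direction. Without GFP replicate 2 the median of the 5 tested carriers of this kind was -0.06 and 2 lay above 0.

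The amino acid carriers grouped here, which leave out Slc25a29 described below, had no common direction, with 3 of 5 above 0. Slc25a38, the glycine carrier that supplies haem synthesis, read 1009 and 248.5 in GFP and 1475 and 1585 in the arrays labelled Ad-lipin. The groups did not overlap, and most of the distance came from GFP replicate 2: the log2 difference was 1.61 ± 0.81 with all arrays and 0.60 without that one. Slc25a13, citrin, the aspartate/glutamate carrier of liver, was lower in both arrays labelled Ad-lipin, at 3582 and 3469 against 4882 and 3950 (-0.32 ± 0.37). The glutamate carrier Slc25a22 differed by 0.42 ± 0.49 and the branched-chain amino acid carrier Slc25a44 by 0.25 ± 0.52, and both values turned below 0 without GFP replicate 2, at -0.23 and -0.19. Slc25a44 was also below 0 without the array labelled Ad-lipin replicate 1, at -0.18. Its other tested probe sets gave 1.27 and 0.66 with all arrays, and 0.03 and 2.47 without GFP replicate 2. Slc25a2, an ornithine carrier, read 124.0 and 1198 in the arrays labelled Ad-lipin, on either side of 565.1 and 500.2 in GFP. Its difference was -0.46 ± 1.36 with all arrays and 1.17 without the array labelled Ad-lipin replicate 1.

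Among the probe sets that represent a gene, the largest positive differences were those of 2 carriers of cofactors and metals. Slc25a37, mitoferrin 1, brings iron into mitochondria for haem and iron-sulfur clusters. It read 566.7 and 45.2 in GFP, the latter under the floor, and 1822 and 1641 in the arrays labelled Ad-lipin. The groups did not overlap, and the log2 difference was 2.73 ± 0.97 (limma adjusted p = 0.962), or 1.61 without GFP replicate 2. Of the erythroid marker list, Alas2, the erythroid haem synthesis enzyme, was the single tested member, with 1713 and 3019 in GFP and 1955 and 855.9 in the arrays labelled Ad-lipin. Hba-a1, too dim to test, read 237.9 and 581.2 against 315.3 and 177.2. Of the 4 genes listed only these 2 had a probe set, and both were highest in GFP replicate 2. The part of erythroid cells in the Slc25a37 value was not tested. Slc25a28, mitoferrin 2, the form of non-erythroid tissue, differed by -0.12 ± 0.63, or 0.22 without the array labelled Ad-lipin replicate 1.

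Slc25a17 is the family member of the peroxisomal membrane, where it carries coenzyme A and related cofactors. Its tested probe set read 630.2 and 149.2 in GFP and 1878 and 1976 in the arrays labelled Ad-lipin, again with separate groups. This gave a log2 difference of 2.65 ± 0.88 (limma adjusted p = 0.962), or 1.61 without GFP replicate 2. A second Slc25a17 probe set was too dim to test and stood under the floor on 3 arrays, with 1273 on GFP replicate 2, the array that was lowest on the first. The remaining cofactor carriers lay closer to 0 on the probe sets that represent them. Slc25a42, a coenzyme A carrier of the inner membrane, differed by 0.24 ± 0.48, the pyrimidine nucleotide carrier Slc25a33 by -0.27 ± 0.47 (0.10 without the array labelled Ad-lipin replicate 1) and the glutathione carrier Slc25a39 by -0.12 ± 0.37. The NAD carrier Slc25a51 differed by 0.41 ± 0.62, but its other probe sets gave 1.85 ± 1.03 and -0.65 ± 0.66. The former was 0.03 without GFP replicate 2, and the latter read 1378 and 1171 in GFP and 925.4 and 705.8 in the arrays labelled Ad-lipin, with both below both GFP values. Slc25a39 read 70120 and 80940 in GFP and 64693 and 74180 in the arrays labelled Ad-lipin, so its groups overlapped. Its 2 other probe sets gave -0.26 and 0.0024.

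Among uncoupling-related and less characterised carriers, Slc25a30, a relative of the uncoupling proteins, was lower. It read 1892 and 1687 in GFP and 795.3 and 822.4 in the arrays labelled Ad-lipin. The log2 difference of -1.14 ± 0.60 (limma adjusted p = 0.962) stayed between -1.23 and -1.06 with any one array left out. The second tested Slc25a30 probe set showed no such gap, at 1252 and 723.8 against 739.9 and 1218. Slc25a53 read 533.0 and 1272 in GFP and 93.5 and 399.2 in the arrays labelled Ad-lipin (-1.91 ± 1.35). Without the array labelled Ad-lipin replicate 1 the value was -1.04, and without GFP replicate 2 it was -1.29. Slc25a47, a carrier found mainly in liver, was nearly level across the arrays, at 46416 and 41534 against 46147 and 44692 (0.05 ± 0.34).

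Slc25a45 differed by -0.29 ± 0.48, Slc25a46, an outer membrane protein of mitochondrial dynamics, by 0.09 ± 0.49, and Slc25a35 by 0.56 ± 1.15. Without the array labelled Ad-lipin replicate 1 the last 2 values turned to -0.08 and -0.22. A second Slc25a46 probe set read 875.7 and 765.3 in GFP and 1987 and 984.2 in the arrays labelled Ad-lipin, with groups apart (0.77 ± 0.66). Without the array labelled Ad-lipin replicate 1 it gave 0.27. Slc25a29, a carrier of basic amino acids, had probe sets that disagreed more than those of any other member. Its probe set with the highest mean gave 0.04 ± 0.39, or -0.15 without the array labelled Ad-lipin replicate 1. Another read 150.9 and 126.3 in GFP and 980.4 and 1079 in the arrays labelled Ad-lipin (2.90 ± 1.44), and yet another read 1181 and 2170 against 96.7 and 124.8 (-3.71 ± 1.26). The groups were fully apart on both, in opposite directions.

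**Figure D2:**
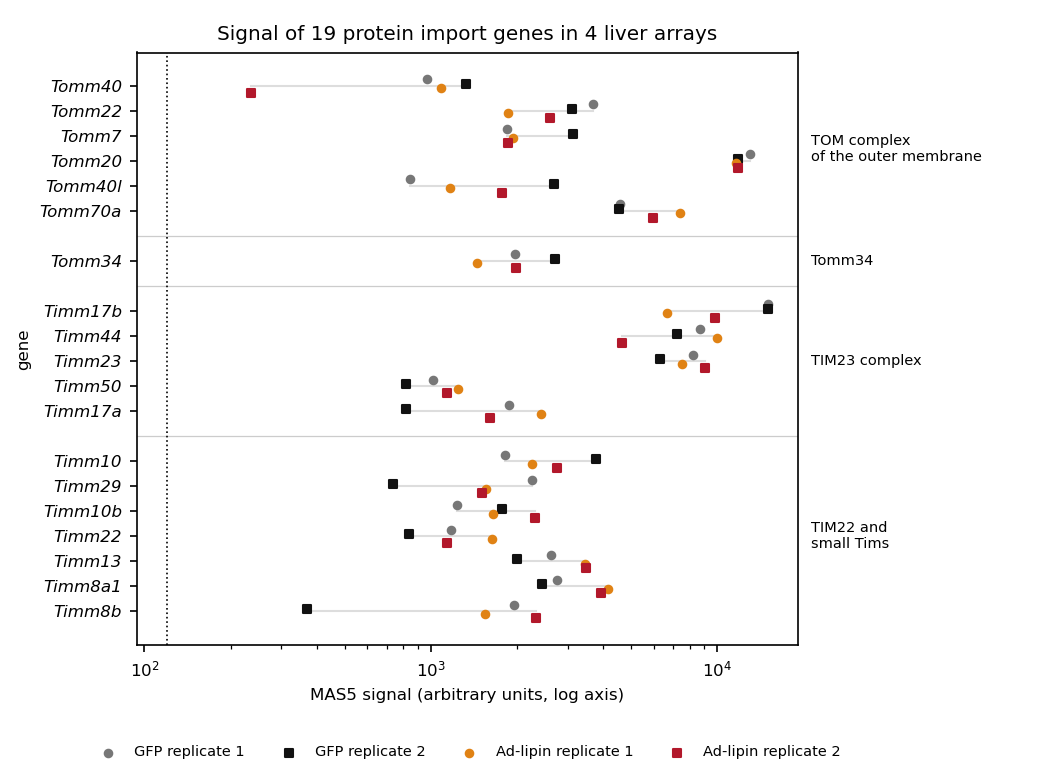
MAS5 signal (log axis) of the 19 tested import genes on the 4 arrays, 1 point per array, grouped by complex and ordered within a group by the log2 difference. The dotted line is the floor of 119.5. Timm17b lies lower in both Ad-lipin arrays, Timm8a1, Timm13 and Tomm70a higher, and GFP replicate 2 stands alone on the left in Timm8b and Timm29.

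In the TOM complex 5 of 6 tested genes had negative differences on the probe sets that represent them, with a median of -0.21. Without GFP replicate 2 the median was -0.05 and 3 of 6 lay above 0. Tomm40, the channel, read 965.4 and 1326 in GFP, 1084 in Ad-lipin replicate 1 and 235.9 in Ad-lipin replicate 2. Its difference of -1.16 ± 0.90 was -0.06 without Ad-lipin replicate 2. Tomm22, the central receptor, read 3676 and 3116 in GFP and 1859 and 2603 in the arrays labelled Ad-lipin (-0.62 ± 0.42), while its second probe set gave 0.62 ± 0.48. The former has the suffix _x_at, which marks probes that can match other transcripts, and the second Tomm22 probe set has no such suffix. Tomm20, the presequence receptor, was nearly level on its brightest probe set, at 13005 and 11785 against 11583 and 11840 (-0.08 ± 0.31). The other 4 Tomm20 probe sets ran from -0.99 to 0.22, and 2 of them had both arrays labelled Ad-lipin below both GFP arrays.

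Tomm70a, the receptor that takes up carriers and their cytosolic chaperones, was the member of the TOM complex with a positive difference on its representing probe set. It read 4579 and 4549 in GFP and 7427 and 5940.2 in the arrays labelled Ad-lipin (0.54 ± 0.35), and its other tested probe sets gave 0.64 and -0.12. The small subunit Tomm7 read 1836 and 3126 in GFP and 1938 and 1853 in the arrays labelled Ad-lipin. Only GFP replicate 2 stood apart, and the difference of -0.34 ± 0.47 was 0.05 without it. This Tomm7 probe set has the suffix _x_at as well, and the other tested ones gave 0.73, 0.06 and -0.30. Tomm40l, a relative of the channel, differed by -0.07 ± 0.63, but by 0.77 without GFP replicate 2 and by 0.23 without the array labelled Ad-lipin replicate 1. Tomm34, a cytosolic co-chaperone and not a subunit of the complex, read 1959 and 2713 against 1452 and 1977 (-0.44 ± 0.48).

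In the TIM23 complex the paralogous subunits Timm17a and Timm17b differed in sign. Timm17b read 15003 and 14984 in GFP and 6692 and 9785 in the arrays labelled Ad-lipin. The log2 difference was -0.89 ± 0.33 (limma adjusted p = 0.962), or 1.85-fold lower. The groups were apart and the GFP arrays nearly equal, and the value ran from -1.16 to -0.62 with any one array left out. That probe set has the suffix _x_at, which marks probes that can match other transcripts. The second Timm17b probe set, without such a suffix, read 2175 and 1816 in GFP and 2873 and 2185 in the arrays labelled Ad-lipin, with both Ad-lipin values above both GFP values (0.33 ± 0.45). Timm17a differed by 0.67 ± 0.57, or 0.07 without GFP replicate 2.

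The channel Timm23 read 8237 and 6308 in GFP and 7544 and 9020 in the arrays labelled Ad-lipin (0.19 ± 0.33, or 0.0020 without GFP replicate 2). Timm50, the receptor of the complex, differed by 0.38 ± 0.65 with groups just apart, and Timm44, which tethers the import motor, by -0.22 ± 0.39 on its brightest probe set and by 0.21 and 0.55 on the others. Each of these values for the channel, the receptor and the tether was smaller than its standard error.

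The subgroup of TIM22 and small Tims had the highest median of the import subgroups, 0.46 over 7 genes, 6 of them above 0. Timm8a1 and Timm13 form a chaperone of the intermembrane space with each other. Timm8a1 read 2757 and 2436 in GFP and 4159 and 3932 in the arrays labelled Ad-lipin (0.64 ± 0.39), and its second probe set, with 979.3 and 885.2 against 1449 and 1539, gave 0.68 ± 0.60. Timm13 read 2633 and 1993 against 3437 and 3483 (0.60 ± 0.41). Groups were apart in all 3 of these probe sets, and leaving out one array at a time gave 0.55 to 0.73 for Timm8a1. The limma adjusted p was 0.962 for both genes.

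Timm8b, a further small Tim, read 1956 and 370.4 in GFP and 1545 and 2323 in the arrays labelled Ad-lipin. GFP replicate 2 alone was low, and the difference of 1.15 ± 0.74 was -0.05 without it. The other small Tim of the tested set, Timm10, differed by -0.07 ± 0.47. Its value was 0.46 without GFP replicate 2 and 0.07 without the array labelled Ad-lipin replicate 1. The TIM22-bound Timm10b differed by 0.40 ± 0.52, and its other tested probe sets gave 0.10 and -0.17. The channel Timm22 differed by 0.46 ± 0.62 and Timm29, a subunit of TIM22, by 0.24 ± 0.62. Second probe sets of Timm22 and Timm29 gave 0.89 and 0.18. GFP replicate 2 was the low array for Timm29, at 736.3, and without it the 2 probe sets of that gene gave -0.56 and -0.40.

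The 7 genes that no tested probe set read were Slc25a14, Slc25a24, Slc25a26, Slc25a36, Slc25a48, Timm8a2 and Timm9. A few of them stood above the floor in one group. Slc25a26, the carrier of S-adenosylmethionine, read 63.1 and 81.8 in GFP and 735.9 and 791.4 in the arrays labelled Ad-lipin on one probe set, but 267.4, 46.9, 432.1 and 53.7 (GFP replicates, then Ad-lipin replicates) on the other. Timm8a2 read 24.5 and 21.8 in GFP against 506.5 and 358.4. These values were left without a test because the probe sets were dim on average, and signal over background is not known for them. Signals of the others were at most 432.2 for Timm9, 165.0 for Slc25a14 and 626.5 for Slc25a48. Slc25a36, a pyrimidine nucleotide carrier, reached 1068 on GFP replicate 2 through one probe set, which read 14.5, 39.0 and 41.9 elsewhere.

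**Figure D3:**
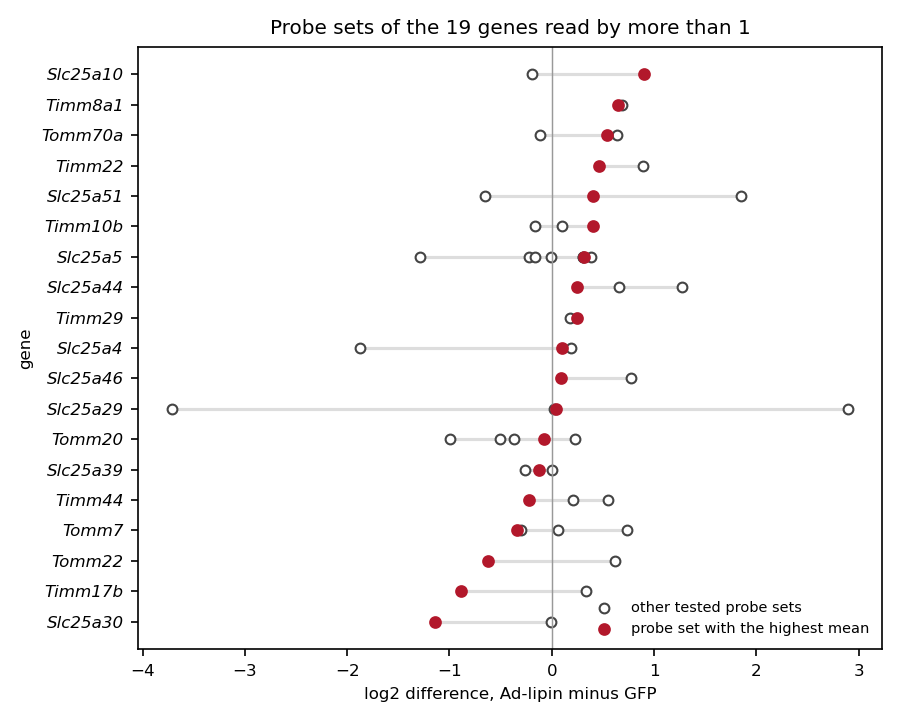
Log2 difference (Ad-lipin minus GFP) of each tested probe set for the 19 member genes read by more than 1. Filled points are the probe sets with the highest mean, which represent the gene, and open points the others. In 13 of the 19 genes the points lie on both sides of 0, most widely in Slc25a29.

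Probe sets of the same gene often disagreed. Of 19 members with more than 1 tested probe set, 6 had all of them on the same side of 0 and 13 had some on each. The 6 were Slc25a30, Slc25a44, Slc25a46, Timm22, Timm29 and Timm8a1. Averaging a gene's probe sets in place of taking the brightest gave medians of 0.26 for carriers and 0.18 for import.

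GFP replicate 2 weighed on the carriers. It was the lowest of the 4 arrays in 46.2% of carriers and 47.4% of import genes, against 27.3% of all tested genes. The median deviation of the 26 carriers from each gene's mean was -0.12 there, against 0.15 in GFP replicate 1, 0.22 in Ad-lipin replicate 1 and 0.07 in Ad-lipin replicate 2. GFP replicate 1 thus stood above Ad-lipin replicate 2 for the median carrier. Over all tested genes GFP replicate 2 was the highest, at 0.11, against -0.0028 in GFP replicate 1 and 0.08 and 0.04 in the arrays labelled Ad-lipin. Without GFP replicate 2 the median carrier difference was -0.02 and 12 of 26 lay above 0, while import genes had 0.05 and 11 of 19, against 50.5% of all genes. The sign turned in 6 carriers and 5 import genes, 24.4% of the members, against 22.7% of all tested genes. Its 3' to 5' actin ratio was the highest of the 4, and the part of RNA quality in these values was not tested. Without the array labelled Ad-lipin replicate 1 the medians were 0.15 and 0.22, against 0.02 over all tested genes. Above 0 lay 16 of 26 and 12 of 19, against 51.5% of all. The sign turned in 8 carriers and 2 import genes, 22.2% of the members against 17.9% of all. Without Ad-lipin replicate 2, the polyA sample, the medians were 0.22 and 0.27, against 0.08 over all tested genes. Signs turned there in Slc25a42 (-0.06), Slc25a45 (0.09) and Timm44 (0.33). The part of the RNA type in these values was not tested.

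**Figure D4:**
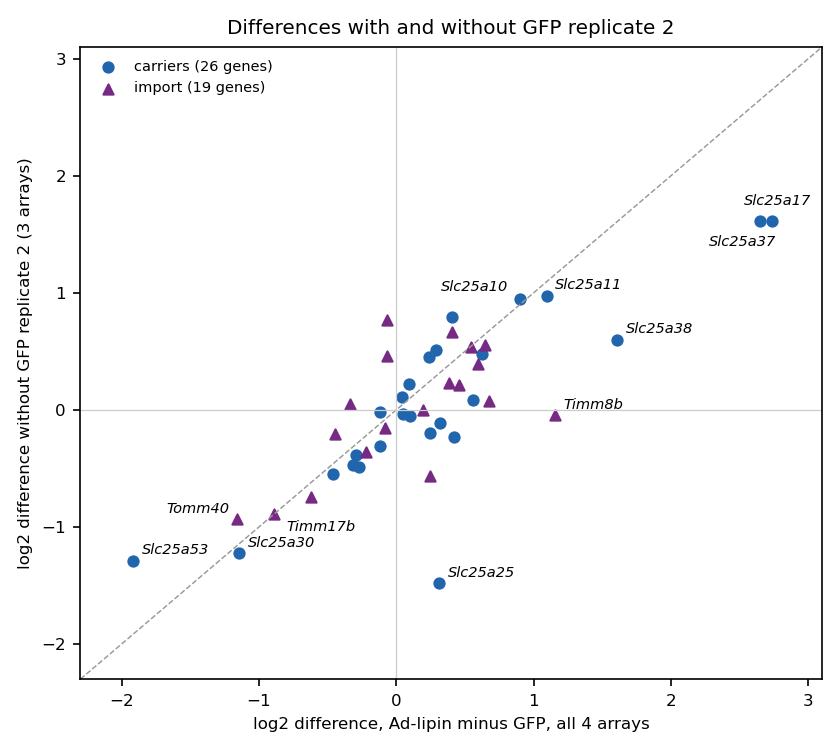
Log2 difference (Ad-lipin minus GFP) of the 45 tested members with all 4 arrays (horizontal axis) and without GFP replicate 2 (vertical axis), with a dashed line where both are equal. Slc25a10, Slc25a11, Slc25a30 and Timm17b lie close to the line, Slc25a17, Slc25a37 and Slc25a38 below it but above 0, and Timm8b and Slc25a25 at or below 0 on the vertical axis.

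An untested rule, that each array labelled Ad-lipin differ from each GFP array by 1.5 times or more in one direction, took 6 members. They were Slc25a10, Slc25a11, Slc25a17 and Slc25a37 as higher, 15.4% of carriers against 4.07% of all tested genes, and Slc25a30 as lower, 3.85% against 3.31%. Of the import genes it took 0 as higher and Timm17b as lower (5.26%). These shares rest on 4 genes and 1 gene. For Slc25a17 and Slc25a37 GFP replicate 1 was the higher GFP array, so that the rule was met against that array as well as against GFP replicate 2.

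Complex I subunits and mitochondrial ribosomal proteins were set beside the members for scale. The 31 tested complex I subunits had a median of 0.12, with both arrays labelled Ad-lipin above both GFP arrays in 35.5% and below in 9.68%. The 74 mitochondrial ribosomal proteins had a median of 0.21, with 28.4% above and 14.9% below. The arrays were not ordered alike: complex I was lowest in GFP replicate 1, at a median deviation of -0.20, whereas carriers and mitochondrial ribosomal proteins were lowest in GFP replicate 2. Without GFP replicate 2 the complex I median was 0.36 and that of the mitochondrial ribosomal proteins 0.17. No test of a difference between these groups was made.

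**Figure D5:**
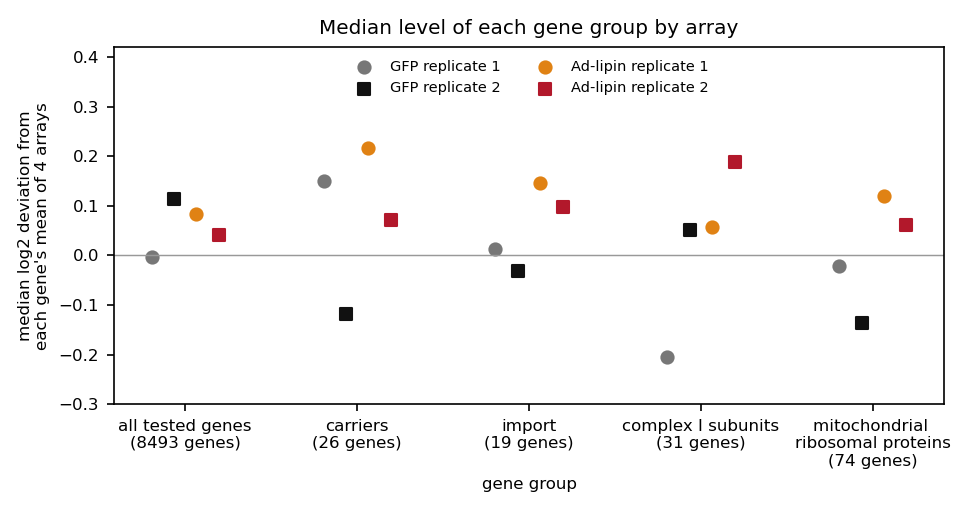
Median log2 deviation from each gene's mean of the 4 arrays, for all tested genes, carriers, import genes, complex I subunits and mitochondrial ribosomal proteins, 1 point per array and no error bars. The carriers are lowest in GFP replicate 2 (-0.12) and complex I in GFP replicate 1 (-0.20), and in the carriers GFP replicate 1 lies between the Ad-lipin points.

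Other genes of the import pathway, listed from textbook knowledge, did not lean either way. Of 21 listed, 18 were tested, 9 above and 9 below 0 with a median of -0.0031, and 0 passed limma's threshold. Pmpcb, a subunit of the protease that removes presequences, read 6767 and 4445 in GFP and 3283 and 3052 in the arrays labelled Ad-lipin (-0.79 ± 0.38), but its second probe set gave -0.0028. Chchd4, which oxidises small Tims in the intermembrane space, read 1793 and 1362 against 2497 and 2070 (0.54 ± 0.48). Hspa9, the matrix chaperone of the import motor, differed by 0.22 ± 0.34. Hsp90aa1, a cytosolic chaperone that hands carriers to Tomm70a, read 34907 in GFP replicate 1 and 16734, 17802 and 11582 in GFP replicate 2 and the arrays labelled Ad-lipin, so that GFP replicate 1 alone stood high.

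Of 17 other genes of mitochondrial membrane transport, 12 were tested, 7 above and 5 below 0, with a median of 0.07 and 0 called. The outer membrane channels Vdac1, Vdac2 and Vdac3 differed by 0.16, -0.06 and 0.09. The pyruvate carrier subunit Mpc1 read 8286 and 7531 in GFP and 6235 and 6198 in the arrays labelled Ad-lipin (-0.35 ± 0.33). It was the only gene of this list with separate groups on its representing probe set. Another Vdac1 probe set also had separate groups, with Ad-lipin higher (0.65 ± 0.33), and the remaining tested Vdac1 probe sets gave 0.41 and -0.42. Without GFP replicate 2 the median of this list was 0.12 and that of the import list -0.08, beside -0.02 for the carriers and 0.05 for the import members.

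Markers of other cell types were read beside these values. The 4 tested genes of the T and NK cell list of 8 were all lower, with summed signals of 3475 and 3677 in GFP and 2740 and 1142 in the arrays labelled Ad-lipin, and the defining genes Cd3e, Cd3d and Cd3g were too dim to test. The 3 tested B cell genes summed to 2107 and 2471 against 1392 and 1159. Macrophage genes, 7 of 8 tested, summed to 47222 and 26916 against 46082 and 30462. Of these 4 had positive and 3 negative differences, with a median of 0.54 on the log2 scale, or -0.28 without GFP replicate 2. Stellate genes (3 of 5 tested) summed to 3998 and 4865 against 4609 and 5600.4, endothelial genes (4 of 5) to 8476 and 12882 against 9723 and 10655, and the 1 tested bile duct gene of 4 read 74.1 and 1372 against 420.0 and 619.5. Their part in the members' values was not tested.

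Promoter windows of RefSeq (GRCm38.p6), 250 bases before to 50 after a gene's start, were found for 43 of the 52 members. Slc25a2, Slc25a26, Slc25a35, Slc25a37, Slc25a44, Slc25a46, Slc25a51, Tomm40l and Tomm7 had none in the table. A set of 3 motifs of factors tied to mitochondrial genes were searched on both strands: GCGCA, any base and then GCGC for NRF-1, AAGGTCA for estrogen-related receptors and CCGGAAG for GABP. The GABP letters were in 8.86% of all 32851 windows and in at least one window of 12.9% of 17492 protein-coding genes. They were in 5 of 24 carriers (20.8%) and 9 of 19 import genes (47.4%). The NRF-1 letters were in 1 carrier (4.17%) and 2 import genes (10.5%), in 4.6% of all windows and in 7.17% of the coding genes. Those of estrogen-related receptors were in 0 carriers and 3 import genes (15.8%), in 4.72% of all windows and in 4.73% of the coding genes.

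The windows of 3 members are shown up to 30 bases after the start, chosen after their values were seen, as those with the largest positive differences of the 8, among 13 tested members with the GABP letters, that read lowest in GFP replicate 2. The other 5 were Slc25a4, Slc25a25, Timm23, Timm29 and Tomm70a. With the letters 4 of 5 tested carriers and 4 of 8 tested import genes read lowest in GFP replicate 2. Without them 5 of 15 carriers and 5 of 9 import genes did, against 27.3% of all tested genes. Capitals mark the motif letters in the reading direction of the gene.
Slc25a17 (GRCm38.p6, chr15:81360736-81361015, minus strand): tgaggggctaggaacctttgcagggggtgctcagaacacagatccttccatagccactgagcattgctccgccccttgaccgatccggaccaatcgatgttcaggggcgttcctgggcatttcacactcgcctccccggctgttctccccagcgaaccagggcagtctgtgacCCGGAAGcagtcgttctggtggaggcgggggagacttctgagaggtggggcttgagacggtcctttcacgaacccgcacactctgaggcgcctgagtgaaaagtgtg
Slc25a38 (GRCm38.p6, chr9:120110132-120110411, plus strand): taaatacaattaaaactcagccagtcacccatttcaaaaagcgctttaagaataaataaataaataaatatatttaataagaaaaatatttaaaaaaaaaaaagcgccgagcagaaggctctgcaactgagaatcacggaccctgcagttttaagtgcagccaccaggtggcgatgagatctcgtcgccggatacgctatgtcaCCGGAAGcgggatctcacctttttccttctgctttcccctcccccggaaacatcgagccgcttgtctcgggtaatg
Timm8b (GRCm38.p6, chr9:50603651-50603930, plus strand): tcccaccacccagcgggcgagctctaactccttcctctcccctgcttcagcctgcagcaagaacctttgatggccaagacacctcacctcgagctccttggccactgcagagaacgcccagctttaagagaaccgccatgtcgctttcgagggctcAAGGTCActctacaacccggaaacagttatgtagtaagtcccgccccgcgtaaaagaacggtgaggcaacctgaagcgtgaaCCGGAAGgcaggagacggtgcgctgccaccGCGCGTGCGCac
Slc25a17 and Slc25a38 hold the GABP letters once each, beginning at base 174 and base 205 of the window. Timm8b holds all 3 motifs, at base 157 for the estrogen-related receptors, at base 239 for GABP and at base 269 for NRF-1, the last as its reverse complement. The carriers with the GABP letters were Slc25a3, Slc25a4, Slc25a17, Slc25a25 and Slc25a38, and all 5 had positive differences, with a median of 0.31 against 0.04 for the 15 tested carriers without them. Without GFP replicate 2, 3 of the 5 lay above 0 (median 0.51), and 5 of the 15 (median -0.11). The 8 tested import genes with the letters had a median of 0.22 and 5 above 0, against 0.38 for the rest, and without GFP replicate 2 the medians were -0.02 and 0.07. A match of letters is a description of these windows and not of binding.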

How the data were processed

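Liver RNA of 4 mouse samples, 2 per group by the sample titles, was hybridised to 1 array each. The authors deposited 1 linear intensity per probe set and array, computed with MAS5 per the submitters' processing notes, whose version and scaling target were not given in the sources used. The trimmed mean (2% at each end) was 1501 on every array, so no normalization was added. Median signals still differed, at 581.95 and 746.45 in GFP and 675 and 617.55 in the arrays labelled Ad-lipin. MAS5 subtracts mismatch signals and leaves dim probe sets noisy. Signal over background is unknown, and the number of arrays limits precision.

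The 64 control probe sets were left out, signals were raised to the 20th percentile (119.5), log2 was taken, and 13576 of 22626 probe sets, those whose mean reached the 40th percentile, were tested with limma 3.58.1 in R 4.3.3 (lmFit, eBayes with trend, two-sided, Benjamini-Hochberg adjustment over all tested). The fit was run on simulated data with independent noise and planted differences, without floor or filter. Such data hold no outlying array, so the run does not bear on that case. Gene names came from the platform annotation, and all 103 member probe sets matched RefSeq by Entrez identifier. Named with full values are the 8 members per direction with the smallest p and the member with the highest mean of each subgroup; others are named to account for every member, chosen with values seen. Members, lists and tests were chosen with earlier results of these data known. Alternatives covered normalization, centring, floor, filter, variance model, replicate block, arrays left out and the choice of probe sets.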

Additional observations from a re-analysis of the deposited data

How the results depend on the processing

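No member was called under any alternative run. Of all 13576 probe sets 0 were called by limma (596 at an unadjusted p under 0.05), and leaving out one array at a time gave 0 to 13, the most without Ad-lipin replicate 1. Counts of 2 without GFP replicate 2 and 3 without Ad-lipin replicate 2 also held no member. The median of the carriers ran from -0.024 (without GFP replicate 2) to 0.22 with an array left out, and that of the import genes from 0.046 (without GFP replicate 2) to 0.27. Over all tested genes the median moved too, from -0.12 (without GFP replicate 1) to 0.08 (without Ad-lipin replicate 2). The import median was 0.15 after quantile normalization, 0.24 without a filter on dim probe sets and 0.29 without _s_at, _x_at and _a_at probe sets. Each lay further from 0.19 than 0.03, the spread between replicates of the median deviation of the class. That spread does not measure how single genes vary, and leaving out arrays moved the same median from 0.046 to 0.27. The cause of these shifts was not tested. Of 248 values of the 20 members named by rule, 244 kept their direction. The variance model, the replicate block and the filters cannot change a difference, so part of that count was fixed in advance. Most of these members were also picked by smallest p in these data. Over all 45 tested members 11 signs turned without GFP replicate 2. Those of the 248 that turned were Timm8b (-0.046), Tomm7 (0.046) and Slc25a47 (-0.032) without GFP replicate 2, and Tomm7 as the mean of its probe sets (0.036). With GFP replicate 1 left out instead, they stood at 2.35, -0.72 and 0.13. Counts above 0 under each alternative were added after seeing the data. The sample titles do not say whether the replicate numbers pair the arrays. Deviations of same-numbered arrays correlated at 0.03 over 13576 probe sets, which cannot settle it with 2 arrays per group. The replicate block gave 52 calls (34 higher, 18 lower), none a member, with infinite prior degrees of freedom, so that the spread came from the intensity trend. That was also so without either Ad-lipin array. Where 1 array of a group remained, it was assumed to vary like those of the other group.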
